A study of Mus musculus with 6 samples.

Results

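Tfrc, the mouse gene for transferrin receptor 1, was compared between ATDC5 cells labelled differentiated, after chondrogenic induction, and ATDC5 cells labelled undifferentiated. It is 1 of 15 genes that the array names by a RefSeq transcript accession. Of 60915 probes other than negative controls, 1 is named for it in this way. Whether any probe without an accession also reads it could not be told. The probe named for Tfrc is printed as 20 spots on each array. ATDC5 is a mouse teratocarcinoma-derived line used as a model of cartilage formation, and all 6 samples come from this single line, kept in DMEM/Ham's F-12 medium with 5% fetal bovine serum. The 3 differentiated samples had received 1% ITS, which here brings 5.5 µg/ml human transferrin and 5 ng/ml sodium selenite beside insulin, for 14 days. The 3 undifferentiated samples are labelled only as such, and their culture time and supplement are not stated, since the treatment text is repeated unchanged for all 6 samples. The insulin concentration is printed there as zero. Whether the replicates are separate cultures is not stated in the labels. The p-values therefore concern only these 3 and 3 samples, and the spread among them may be technical.

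Transferrin carries iron in the blood and in serum-containing medium. The receptor made from Tfrc binds iron-loaded transferrin at the cell surface, is taken up with it, releases the iron in acidified endosomes and returns to the membrane. Its messenger RNA is a textbook case of control by iron: iron regulatory proteins bind hairpins in its 3' untranslated region and protect it when iron is scarce, and it is degraded when iron is plentiful. Dividing cells generally carry more of the receptor than resting cells, and the gene is also used as an expression reference in PCR panels. The comparison therefore sets a gene of transferrin uptake in cells given transferrin against the same gene in cells labelled undifferentiated.

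Transcription of Tfrc starts, in RefSeq's annotation of GRCm38.p6, at 2 places on the plus strand of chromosome 16, at positions 32608896 and 32609122. The files hold neither the probe's sequence nor its place in the transcript, so the letters shown are of the gene's start region, which is the other point besides messenger stability at which its level can be set. Both stretches are 30 bases long, on the plus strand, and lie at chr16:32608889-32608918 and chr16:32608938-32608967. The capitals mark ACGTG, the core bound by hypoxia-inducible factors, TGACG, the core of cyclic AMP response elements, and the letters TATAA.
Tfrc first start stretch: ggtgtACGTGcggaaggaagTGACGtagat
Tfrc TATAA stretch: gtggggccgagcTATAAgctttgggtggga
The ACGTG match begins 2 bases before the first annotated start, and TGACG and TATAA begin 13 and 54 bases after it. Counted from the second start, TATAA begins at -172, so neither annotated start has it at the usual place of a TATA box. Searched on both strands, none of these is rare. TATAA was found in 24.9%, ACGTG in 19.6% and TGACG in 20.8% of 32851 windows of 300 bases around mouse gene starts. The arrays did not measure binding or start sites, so these letters are a description only.

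Tfrc messenger was a strong signal on every array. All 20 of its spots were well above background on all 6 arrays by Agilent Feature Extraction's own test, and none was saturated. The median raw spot brightness lay between 12982 and 29391 intensity units, over a local background of 17 to 20. In differentiated cells the median processed signal of the unflagged spots was 13048 on array 1, 16469 on array 2 and 21036 on array 3. In undifferentiated cells it was 23170, 29444 and 27986 on arrays 1 to 3. All 3 differentiated arrays were dimmer for Tfrc than all 3 undifferentiated ones, before any scaling between arrays.

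Part of this gap belonged to the arrays as a whole. The 75th percentile of the signal, to which each array was scaled, was 195.4 intensity units on differentiated array 1 and 244.5 to 266.8 on the other 5 arrays. Unscaled, the log2 difference between the groups was -0.70, of which -0.14 was the shift of this percentile. All levels below are log2 signal minus the array's own percentile.

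On that scale Tfrc stood at 6.07, 6.02 and 6.34 in differentiated arrays 1 to 3 and at 6.47, 6.78 and 6.86 in undifferentiated arrays 1 to 3. The groups did not overlap. The nearest pair, differentiated array 3 and undifferentiated array 1, lay 0.13 apart, which is less than the largest gap within either group (0.32 among differentiated and 0.40 among undifferentiated arrays). The means were 6.14 ± 0.171 and 6.70 ± 0.210 (SD, n = 3 each). The log2 difference of differentiated minus undifferentiated was -0.56 with a standard error of 0.160 and a 95% interval of -0.94 to -0.18. As a ratio, differentiated cells had 67.8% of the undifferentiated level, or a level 1.47-fold lower (95% interval 1.13 to 1.92).

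**Figure D1:**
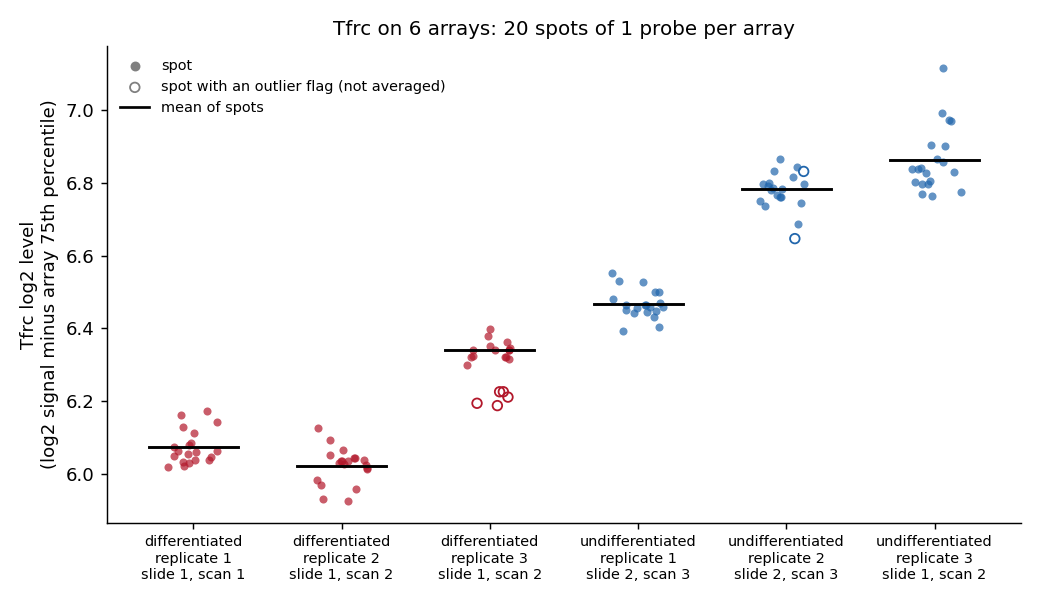
Tfrc log2 level of each of the 20 spots on the 6 arrays (y axis, log2 signal minus the array's 75th percentile), with red points for differentiated and blue points for undifferentiated arrays, open circles for spots with an outlier flag and a line at the mean of the others. The spots of 1 array cluster tightly, the 3 differentiated means (6.02 to 6.34) lie below the 3 undifferentiated means (6.47 to 6.86), and differentiated array 3 and undifferentiated array 1 come closest.

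The difference missed the threshold once all probes were taken into account. The limma fit over 41838 kept probes gave Tfrc an unadjusted p of 0.00989 and a Benjamini-Hochberg adjusted p of 0.0649, against a threshold of 0.05. In the same fit 13.3% of probes passed that threshold, 7.92% lower and 5.39% higher in differentiated cells. The array also carries sets of probes named for mouse long intergenic non-coding RNAs. Shares of probes given here and below are over probes of every kind, and not over messenger probes. Without overlap and lower in differentiated cells, as Tfrc was, were 19.2% of the 41592 probes with a value on every array. That separation of the 2 groups was thus common. The Tfrc level averages up to 20 spots per array. With 61500 spots for 60915 probes, nearly all other probes are not averages of repeated spots. A two-sided exact permutation test of Tfrc over the 6 arrays gave p = 0.1, the smallest that 3 against 3 arrays allow. In RNA from whole cultures, fewer cells that carry the messenger and less messenger per cell cannot be told apart.

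The unflagged spots agreed closely within each array, so the precision is limited by the number of arrays and not by the spots. The SD of the log2 values of unflagged spots was 0.025 to 0.050 on 5 arrays. It was 0.090 on undifferentiated array 3, where the signal ran from 26573 to 33955 intensity units. The lowest, 0.025 on differentiated array 3, is without that array's 5 flagged spots, which were its dimmest. With them, the log2 levels of its spots ran from 6.19 to 6.40. These SDs are smaller than the SDs between arrays of one group, 0.171 and 0.210. The spots are repeats of 1 probe on 1 RNA sample and were not counted as replicates.

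At all 20 spot positions the mean of the differentiated arrays was below that of the undifferentiated arrays. The difference ranged from -0.71 to -0.43 over positions, with a median of -0.56. At 19 of the 20 positions every differentiated array was below every undifferentiated one. Outlier flags had removed 5 spots on differentiated array 3 and 2 on undifferentiated array 2, which left 14 positions with a value on all 6 arrays. On differentiated array 3 the flagged spots, at 18930 to 19437 intensity units, were all dimmer than the unflagged ones, which began at 20452. With the flagged spots kept, differentiated array 3 moved from 6.34 to 6.29 and the difference became -0.57 (limma, adjusted p = 0.0535).

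Slide and scan were not balanced between the groups, so the Tfrc values are also given within them. The 3 differentiated arrays and undifferentiated array 3 were on slide 1, and undifferentiated arrays 1 and 2 were on slide 2. Within slide 1, differentiated arrays 1 to 3 minus undifferentiated array 3 gave -0.79, -0.84 and -0.52. The fit on those 4 arrays, in which the lone undifferentiated array is assumed to vary like the others, gave -0.72 (95% interval -1.28 to -0.16; limma, adjusted p = 0.141). With slide as a block, where undifferentiated arrays 1 and 2 add to the spread but not to the difference, it was also -0.72 and the adjusted p 0.121 (limma). Differentiated arrays 2 and 3 shared a scan time with undifferentiated array 3, and within that scan the difference was -0.68 (95% interval -1.41 to 0.04; limma, adjusted p = 0.331). With the scan as a block, where differentiated array 1 and undifferentiated arrays 1 and 2 add nothing to the difference, limma gave -0.68 (adjusted p = 0.261). All of these values rest on undifferentiated array 3 as the only undifferentiated array beside differentiated ones, and it had the highest Tfrc level of its group (6.86, against 6.47 and 6.78). The part of slide and scan in the Tfrc difference was not tested apart from that array.

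How the arrays were brought to one scale changed the size of the Tfrc difference. Quantile normalization, under which all arrays share one distribution of values, gave -0.28 (95% interval -0.57 to 0.005; limma, adjusted p = 0.197). Cyclic loess, which evens out differences that depend on brightness, gave -0.31 (limma, adjusted p = 0.147). In the authors' deposited value table Tfrc stood at 14.19, 14.11 and 14.31 in differentiated arrays 1 to 3 and at 14.46, 14.55 and 14.54 in undifferentiated arrays 1 to 3, as log2 values. The groups did not overlap in that table either, and limma on it gave -0.31 (adjusted p = 0.124). The direction was the same under all 9 ways of forming the levels, and the groups were separate under 8 of them. With arrays centred on their medians, differentiated array 3 (8.59) reached undifferentiated array 1 (8.59), with a difference of -0.57 (limma, adjusted p = 0.118). With normexp background correction, Tfrc passed the threshold at -0.59 (limma, adjusted p = 0.0151).

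**Figure D2:**
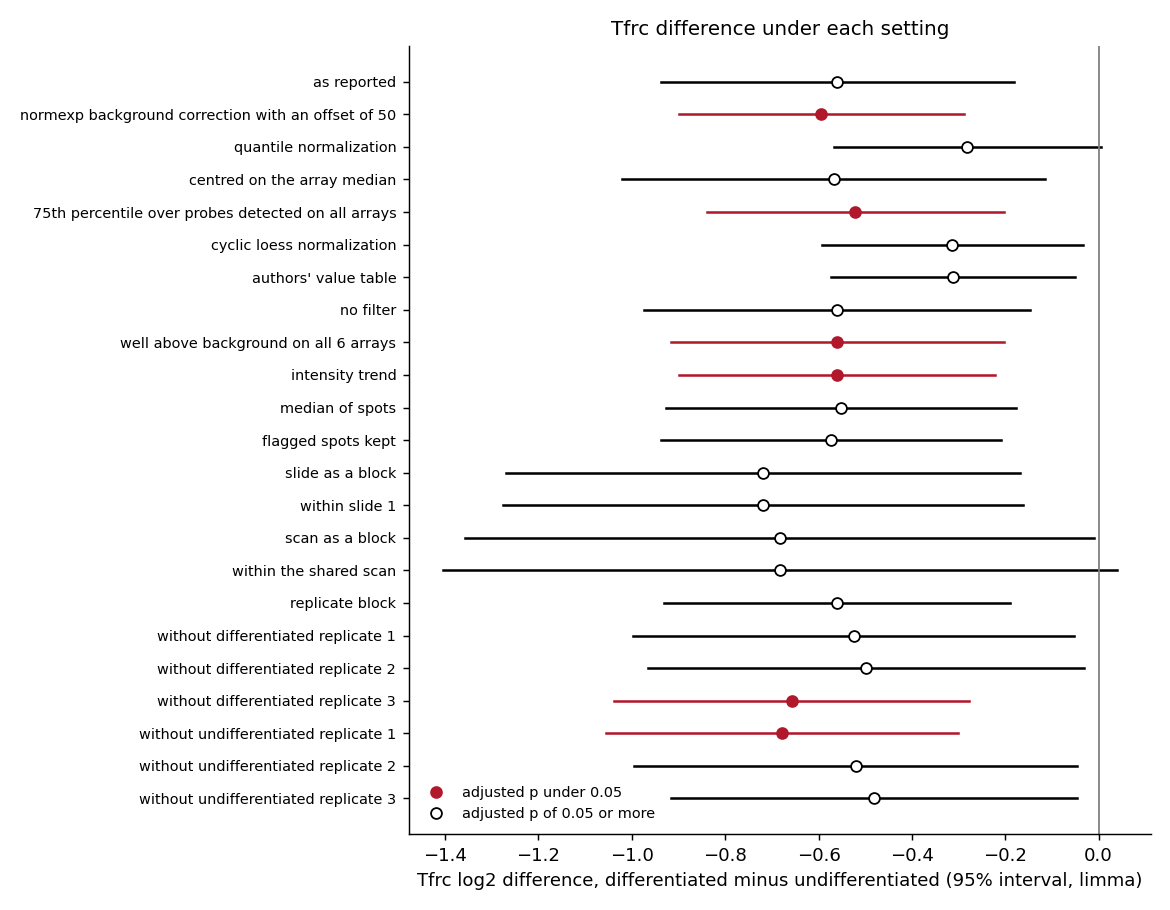
Tfrc log2 difference of differentiated minus undifferentiated (x axis) with its 95% interval from limma for the reported fit and 22 alternatives (y axis). Filled red points have an adjusted p under 0.05 and open black points do not. All points lie below 0, from -0.72 to -0.28, 6 of the alternatives pass the threshold, and the intervals with quantile normalization and within the shared scan cross 0.

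Tfrc belonged to the brightest decile of kept probes, whose median difference moved with the scaling. The 4184 probes in that decile had a median log2 difference of -0.23, against -0.05 over all kept probes. Tfrc lay -0.33 from the median of its decile, and 18.7% of the probes there had a difference as low or lower. Over all kept probes that share was 10.8%. Quantile normalization and cyclic loess brought the median of this decile to 0.0035 and -0.0033, and Tfrc then lay -0.28 and -0.31 from it. Over the reported fit and the 22 alternatives, Tfrc was between -0.41 and -0.26 from the median of its decile. Cyclic loess also turned the split of calls, from 3315 lower and 2254 higher to 2659 lower and 2856 higher. The split turned further in the slide and scan fits, to 1305 lower and 1903 higher with slide as a block, 768 and 1653 within slide 1, 458 and 1059 with scan as a block and 745 and 1605 within the shared scan.

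**Figure D3:**
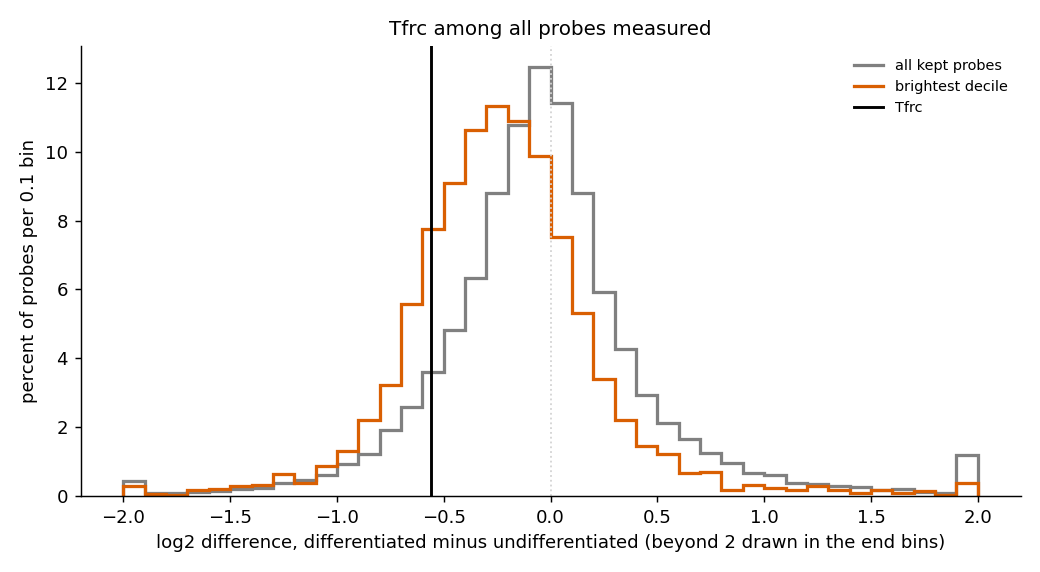
Distribution of log2 differences, differentiated minus undifferentiated (x axis), as percent of probes per bin (y axis), for all 41838 kept probes (grey) and the brightest decile (orange), with Tfrc as a black line at -0.56. The orange curve is shifted to the left, with a median of -0.23, and Tfrc lies on its left flank.

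Setting Tfrc against other genes of the same array removes a constant per array, as is done with reference genes in PCR. It does not remove a shift that depends on brightness. The other named genes were not shown to be stable here, with log2 differences from -0.53 (Hprt) to 0.38 (B2m). The mean of the 14 other named genes was subtracted from Tfrc on each array. The result was 1.27, 1.20 and 1.43 on differentiated arrays 1 to 3 and 1.63, 1.76 and 1.81 on undifferentiated arrays 1 to 3, on the log2 scale. The groups did not overlap. The difference was -0.43 (two-sided exact permutation p = 0.1, the smallest possible with 3 against 3 arrays). With the median of the 14 genes in place of their mean it was -0.25 (exact permutation p = 0.1). Against the mean of only Hprt, Tbp, Gusb and Nono it was -0.46, with 1.57 ± 0.074 in differentiated and 2.03 ± 0.069 in undifferentiated cells (SD, n = 3 each; exact permutation p = 0.1). Under quantile normalization and in the authors' value table, the value against the 14 genes was -0.33 and -0.34.

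Taken gene by gene, the value depended on which reference was used. The difference in Tfrc minus that gene was below 0 for each of the 14 genes, under each of the 9 ways of forming the levels. These are not separate checks. All 14 values share the same Tfrc levels, and ways that differ only by a constant per array cannot change them. For 7 of the 14 genes the groups did not overlap on the reported scale. Tfrc by itself already separated them, as 19.2% of all probes did in that direction. The share of such ratios over all probes was not computed. The difference was -0.94 relative to B2m, the small subunit of MHC class I, and -0.63 relative to Tbp, the TATA-binding protein. Relative to Gusb, a lysosomal enzyme, it was -0.62, and relative to Nono, an RNA-binding protein, -0.58. Tbp, Gusb and Nono were dimmer than Tfrc, with mean levels of 2.57, 4.99 and 4.18 in differentiated cells, against 6.14. The part of a brightness-dependent shift in these ratios was not tested. The difference in Tfrc minus the gene was smaller for some other genes. It was only -0.12 relative to the cytoskeletal gene Actb and -0.11 relative to the chaperone gene Hsp90ab1 (exact permutation p = 0.5 and 0.3), and the groups overlapped. Relative to Hprt, the purine salvage enzyme hypoxanthine phosphoribosyltransferase, it was -0.03 (exact permutation p = 0.7), and between -0.08 and -0.02 under the 9 ways. The ratio of Tfrc to Hprt thus overlapped between the conditions on these arrays, whereas its ratio to Tbp, Gusb or Nono, as to B2m, separated them without overlap. Its ratios to G6pd2 (-0.76), Ldhal6b (-0.63) and Rpl13a (-0.23) also separated them. G6pd2 and Ldhal6b were far dimmer than Tfrc. Mean levels in differentiated and undifferentiated cells were 0.52 and 0.32 for G6pd2, -2.35 and -2.41 for Ldhal6b, and 6.14 and 6.70 for Tfrc.

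The profile of Tfrc over the 6 arrays was compared with those of the other 14 named genes by Pearson's r, as a description of 6 points that share the scaling of each array. The most similar were Rpl13a, a ribosomal protein gene (r = 0.992), Hprt (0.983) and Hsp90ab1 (0.932), and the least similar was Ldhal6b, a lactate dehydrogenase-like gene (-0.652). Rpl13a stood at 5.21, 5.20 and 5.44 in differentiated arrays 1 to 3 and at 5.43, 5.69 and 5.73 in undifferentiated arrays 1 to 3. Its order was that of Tfrc in all but 1 place, since differentiated array 3 (5.441) lay just above undifferentiated array 1 (5.434). The log2 difference of Rpl13a was smaller, -0.33 against -0.56 for Tfrc, which Pearson's r does not show. Hprt stood at 6.49, 6.45 and 6.76 in differentiated and at 6.98, 7.13 and 7.17 in undifferentiated arrays, an order identical to that of Tfrc. Of the 14 genes, 8 had a difference below 0 (5 with cyclic loess, 7 with quantile normalization and the authors' table, 9 with normexp) and 3 lay lower in all differentiated arrays without overlap, against 19.2% of all probes, and the median difference of the 14 was -0.11. The adjusted p of Rpl13a and Hsp90ab1 was 0.195 and 0.174, and that of Hprt 0.0497 (limma).

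**Figure D4:**
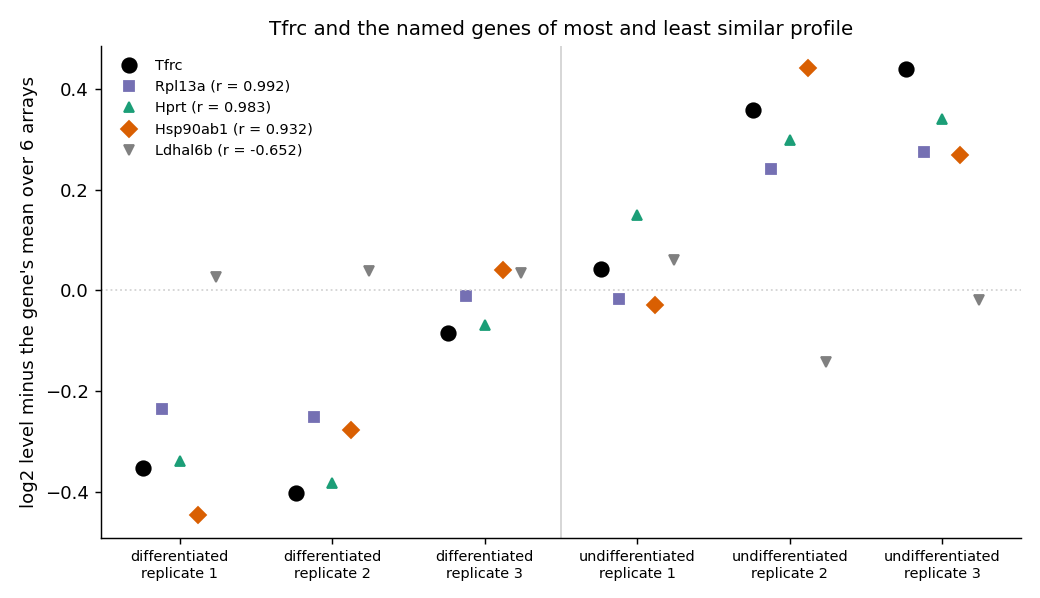
Log2 level of Tfrc (black circles), Rpl13a, Hprt, Hsp90ab1 and Ldhal6b on each array, with each gene's mean over the 6 arrays subtracted (y axis) and Pearson's r with Tfrc in the key. Tfrc, Hprt and Rpl13a are lowest on differentiated arrays 1 and 2, intermediate on differentiated array 3 and undifferentiated array 1 and highest on undifferentiated arrays 2 and 3, while Ldhal6b (r = -0.652) shows no such order.

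No other gene of iron handling could be set beside Tfrc. Of 18 such genes on a list that covers transferrin, ferritins, iron exporters and importers and the iron regulatory proteins, 0 are paired with a probe by the files or the tables used here. The same held for the 7 cartilage markers on the list of markers, among them Col2a1, Acan and Sox9, and for all 20 cell type markers, so the labelled differentiation was not checked against them. The place of Tfrc in the iron response of these cells was not tested.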

How the data were processed

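RNA of 6 samples was hybridised to one-colour Agilent arrays (Cy3), 1 array per sample. The authors deposited spot intensity values, from which Feature Extraction 11.0.1.1 had removed background and a spatial trend within the array, per the submitters' processing notes and the file headers. Their deposited value table holds log2 values whose column medians are 5.75. The correlation of each column with its array's log2 scanner signal was at least 0.998, which settles direction. A correlation does not settle scale, but Tfrc on differentiated array 1 was 14.19 in the value table and 13.68 as log2 scanner signal. The normalization of the value table was not given in the sources used here. The table served as an alternative.

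Spots with outlier flags (59 to 162 of 61500 per array) were dropped, log2 signals of a probe's spots averaged and each array's 75th percentile subtracted. Probes well above background on at least 3 arrays were kept (68.7%). Differences were tested with limma 3.58.1 (R 4.3.3; lmFit and eBayes, two-sided, Benjamini-Hochberg over all kept probes). The eBayes step moderates each probe's variance by that of all kept probes. The limma p-values for Tfrc thus do not rest on its own spread alone. The code was tested on simulated data. Blocks for slide and scan can drop the value of probes measured in 1 group only. The number of arrays limits the precision.

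The accession of the Tfrc probe, NM_011638 without its version, was matched to RefSeq symbols, as were those of all 15 named genes. The array design rests on mm9, so the GRCm38.p6 coordinates are those of the RefSeq promoter table only. Tfrc, the lists and the alternatives were chosen with earlier results of these data known. Genes named beside Tfrc were the 3 named genes with the highest and the 1 with the lowest correlation with it. Actb, B2m, G6pd2, Tbp, Gusb and Nono were named after their values were seen.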

Additional observations from a re-analysis of the deposited data

How the results depend on the processing

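The Tfrc difference of -0.56 had the same direction under all 22 alternatives, from -0.72 to -0.28, with adjusted p from 0.0151 to 0.331 in limma. Changing only the filter, the intensity trend or the block for replicate number could not move the estimate of -0.56. The fits with slide or scan as a block repeated the estimates within slide 1 and within the shared scan. The 22 alternatives are therefore not 22 separate checks of direction. The difference passed the threshold under 6 of them. These were normexp (-0.59), a percentile taken from probes detected on every array (-0.52), the filter on all 6 arrays (-0.56), the intensity trend (-0.56), and leaving out differentiated array 3 (-0.66, adjusted p = 0.0455) or undifferentiated array 1 (-0.68, adjusted p = 0.0449). Differentiated array 3 (6.34) and undifferentiated array 1 (6.47) lay nearest the other group, so leaving out either had to widen the difference. When 1 array was left out the Tfrc difference ranged from -0.68 to -0.48. With the replicate number as a block it was -0.56 (adjusted p = 0.0805) and 3996 probes were called. Deviations of same-numbered samples correlated at 0.14, -0.087 and 0.034, so the numbers are not shown to pair samples. The value relative to the other named genes lay between -0.51 and -0.25 under 16 alternatives. The count of 5569 changed probes became 3208 with slide as a block, 2421 within slide 1, 1517 with scan as a block, 2350 within the shared scan, 2241 at 2-fold or more, and 2924 to 5976 without 1 array. Leaving out differentiated array 1 gave 3164 and differentiated array 2 gave 2924, while leaving out undifferentiated array 2 gave 3066 and undifferentiated array 3 gave 3337. The cause was not tested.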
